A study of Bos taurus with 30 samples.

Results

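Cytosolic ribosomal protein genes were followed in the bovine corpus luteum, the ovarian gland that forms after ovulation and makes progesterone. A member was any gene whose platform symbol was RPL or RPS with a digit, RPLP0, RPLP1, RPLP2 or RPSA, without the RPS6K kinases. The platform named 69 such genes, of 9155 genes with a symbol, through 98 of 24016 probe sets tested. RPLP1 and RPS27A were not analysed here. Each gene was read from 1 probe set, the one with the highest mean over the 30 arrays.

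The tissue came from Angus crossbred heifers, 5 in each of 6 groups and 1 array per heifer. Controls received saline and gave tissue at 0 h, on day 4 or on day 11 of the estrous cycle. The other heifers received prostaglandin F2α (PGF2α) on day 4 or on day 11 and gave tissue 4 h or 24 h later. The groups were different animals, so no heifer was followed over time, and saline was given at 0 h only.

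Ribosomal proteins and ribosomal RNA build the small and the large ribosomal subunit, which translate mRNA in the cytosol. Their mRNAs are abundant and begin with an oligopyrimidine tract, through which mTOR signalling controls how much of them is translated, a step that an array of mRNA levels does not read. PGF2α is the hormone that ends the life of a mature corpus luteum, whereas a newly formed one resists it. The comparisons below answer whether the mRNAs differed between the early and the mature gland, and whether they changed after PGF2α at either stage.

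Values are log2 signals as deposited, so a difference of 1 is a doubling and a difference of 0.26 is close to 1.2-fold. A gene was called higher or lower where limma's moderated test gave a Benjamini-Hochberg adjusted p under 0.05 over all 24016 probe sets. The signal of 59 of the 69 members lay at 12 or above, a range that held 1.12% of the probe sets tested, and 26 members lay at 13 or above. The highest value in the table was 14.35, and whether signals this high lose range was not tested. RPL37, RPL3L and RPS19 were below 7 on their brightest probe set, which limits what those 3 can show. Members also varied little between heifers of a group, with a median SD of 0.0717 against 0.198 over all probe sets and 0.109 over the 208 other probe sets at 12 or above.

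The arrays held the markers of the labelled tissue: STAR, which moves cholesterol into mitochondria, averaged 12.87 on day 4 and 13.60 on day 11 at 0 h. Array medians lay between 6.01 and 6.16. Replicate 1 of the day 11, 4 h group stood apart in control probe sets, with a 3′ minus 5′ difference of -1.40 for EF1A against -2.46 to -2.28 in the other arrays of its group. The tissue was whole, so fewer cells of a type and less RNA per cell cannot be told apart.

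Between the days, the members called differed in 1 direction only, by small amounts. At 0 h, 24 of 69 members were called lower on day 11 than on day 4 and 0 were called higher, against 17.7% lower and 16.2% higher over all probe sets. The count was 11 with the 10 control arrays fitted alone and 7 with the signal of the labelling controls, described further on, as a covariate. The share of all probe sets called under either of those fits is not given here, so 11 and 7 have no background beside them. The median difference of the members was -0.10, with 57 negative and 12 positive, beside a median of 0.03 over all probe sets tested. Among the 208 other probe sets with a mean of 12 or above, 31.7% were called lower, a share near that of the members (34.8%), and 26.9% were called higher; their median was -0.08. For 21 members the 5 day 11 controls all lay below the 5 day 4 controls, against 12.8% of all probe sets. By subunit, 10 of 40 large-subunit and 10 of 24 small-subunit genes were called lower. So were 4 of the 5 genes that are paralogs or bind a ribosomal protein.

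Averaging the 69 genes within each array put the days side by side. The mean deviation from the 30-array mean was 0.01, 0.08, 0.02, 0.09 and 0.09 in the day 4 controls. It was -0.16, -0.09, -0.02, 0.01 and -0.06 in the day 11 controls. The 5 day 4 controls lay above the 5 day 11 controls, but day 11 replicate 4 (0.0063) came within 0.01 of day 4 replicate 1 (0.0073). Over the 3 times, day 4 arrays ran from 0.01 to 0.14 and day 11 arrays from -0.17 to 0.01.

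**Figure D1:**
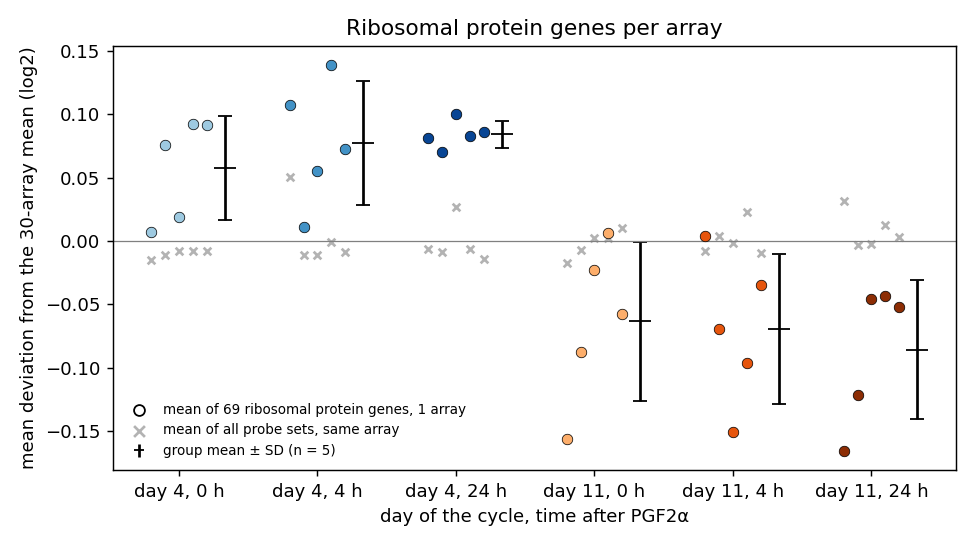
Mean deviation of the 69 ribosomal protein genes from their 30-array means (log2, y axis) in each array of the 6 groups (x axis), with the group mean ± SD (n = 5). Crosses give the mean of all probe sets in the same array. Day 4 arrays sit between 0.01 and 0.14, day 11 arrays between -0.17 and 0.01, and the 3 times of a day overlap.

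RPL8, a large-subunit protein next to the site where peptide bonds form, was lower on day 11 at each time. Its log2 signal was 12.96, 13.04, 12.97, 12.99 and 12.97 in the day 4 controls and 12.60, 12.81, 12.70, 12.55 and 12.55 in the day 11 controls. Every day 11 control lay below every day 4 control, and the spread on day 11 was wider. The difference was -0.35 ± 0.062 (SE), or 1.27-fold lower, with limma's adjusted p at 6.5e-05. At 4 h it was -0.40 (adjusted p = 1.1e-05) and at 24 h -0.36 (adjusted p = 3.1e-05), again with no overlap.

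RPS12, a protein of the small subunit's beak, gave 13.02, 13.13, 12.97, 13.05 and 13.07 in the day 4 controls and 12.70, 12.76, 12.80, 12.81 and 12.66 in the day 11 controls. The groups did not overlap, and the difference was -0.30 ± 0.059 (SE; limma's adjusted p = 0.00019). The gene's probe sets disagreed: a dimmer probe set with a mean of 8.50 was higher on day 11 by 0.48 (adjusted p = 0.023), and the mean of the gene's 4 probe sets differed by 0.11 (adjusted p = 0.63). RPS12 was therefore called lower on its brightest probe set and not on the mean of its 4 probe sets.

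RPS20, of the small subunit's head, was 12.83 to 12.98 in the day 4 controls. In the day 11 controls it was 11.99, 12.68, 12.73, 12.74 and 12.67. Replicate 1 lay far below the others, and all 5 were below the day 4 controls. The difference was -0.35 ± 0.094 (SE; limma's adjusted p = 0.0043) and was not called with the 10 control arrays fitted alone (adjusted p = 0.068).

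RPL36A, a large-subunit protein at the exit site for tRNA, ran from 11.46 to 11.84 (median 11.54) in the day 4 controls and from 11.17 to 11.44 (median 11.28) in the day 11 controls. The lowest day 4 control lay just above the highest day 11 control. The difference was -0.33 ± 0.093 (SE), with limma's adjusted p at 0.0061.

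The largest differences belonged to 2 proteins that are not structural parts of the ribosome. RPL7L1 is a relative of RPL7 that acts in the assembly of the large subunit in the nucleolus. It gave 9.99, 9.92, 10.03, 10.13 and 10.02 in the day 4 controls and 9.40, 9.08, 9.65, 9.42 and 9.66 in the day 11 controls, with no overlap. The difference was -0.57 ± 0.094 (SE), or 1.49-fold lower (limma's adjusted p = 1.9e-05). RPS19BP1 is a nucleolar protein that binds RPS19. It gave 9.35, 9.27, 9.38, 9.65 and 9.44 on day 4 and between 8.53 and 9.07 on the 5 arrays of day 11, again with no overlap. The difference was -0.55 ± 0.097 (SE; limma's adjusted p = 5.8e-05), and at 24 h it reached -0.70 (adjusted p = 1.3e-06).

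The paralogs can be set beside the genes they resemble, although the difference between the genes of a pair was not tested. RPL7 differed by 0.01 between the days at 0 h (adjusted p = 0.94) where RPL7L1 fell by 0.57. RPL26 differed by -0.01 (adjusted p = 0.92), and its paralog RPL26L1 by -0.35 ± 0.10 (SE; adjusted p = 0.0089). RPS27 differed by -0.01 (adjusted p = 0.92), and RPS27L, which p53 induces in human cells, by -0.25 (adjusted p = 0.024). RPL3 differed by -0.11 (adjusted p = 0.17), and RPL3L, a muscle paralog, by 0.13 at a dim mean of 4.59 (adjusted p = 0.57). RPS19, whose binding partner is RPS19BP1, was called lower by 0.37 (log2 difference -0.37, adjusted p = 0.0066) on a probe set with a mean of 5.57, and its 5 values per group overlapped. With the mean of its probe sets the difference was -0.14 (adjusted p = 0.17). RPL7, RPL26 and RPS27 belong to the 59 members at 12 or above, where a loss of range was not tested.

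The stalk, whose acidic proteins bring elongation factors to the ribosome, was read through RPLP2 and RPLP0, and the difference between them was not tested. RPLP2 was called lower at each time, by -0.19 at 0 h (adjusted p = 0.023), -0.20 at 4 h and -0.22 at 24 h. Its day 11 control replicate 3 (13.15) lay inside the day 4 controls (13.08 to 13.18). RPLP0 gave 13.15, 13.24, 13.13, 13.19 and 13.21 in the day 4 controls and 13.24, 13.23, 13.24, 13.23 and 13.19 in the day 11 controls. These overlapped, and the difference of 0.04 had a 95% interval from -0.07 to 0.15 (adjusted p = 0.60).

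RPS6, the small-subunit protein that S6 kinases phosphorylate, was not called at any time. Its controls gave 13.24, 13.29, 13.23, 13.26 and 13.29 on day 4 and 13.14, 13.07, 13.22, 13.24 and 13.16 on day 11, which overlap through day 11 replicate 4. The difference was -0.10, with a 95% interval from -0.22 to 0.02 (limma's adjusted p = 0.23). RPS4Y1, a symbol that in other species names a Y-linked copy although these animals were female, differed by -0.01 (adjusted p = 0.94). A dimmer probe set under that symbol, with a mean of 9.92, was higher on day 11 by 0.77 (adjusted p = 0.00017).

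The same 2 stages were compared among the treated heifers, which are different animals; both comparisons were added after the data were seen. At 4 h, 28 members were called lower on day 11 and 0 higher, against 17.7% lower and 13.7% higher over all probe sets. The median was -0.13, and 28 members showed no overlap, against 12.8% of all probe sets. At 24 h, 33 were called lower and 0 higher, against 18.8% and 15.9%. There the median was -0.15, and 42 members showed no overlap, against 13.7%. The other probe sets at 12 or above had medians of -0.08 at 4 h (33.2% called lower, 26.0% higher) and -0.13 at 24 h (41.3% lower, 20.7% higher). Their mean deviation at 0 h was 0.0036 on day 4 and -0.00044 on day 11, beside 0.057 and -0.063 for the members. At 4 h the other bright probe sets had 0.012 on day 4 and 0.0087 on day 11, beside 0.077 and -0.069 for the members. At 24 h they had 0.06 ± 0.011 (SD, n = 5) on day 4 and -0.08 ± 0.038 on day 11, beside 0.08 ± 0.011 and -0.09 ± 0.055 for the members. At 24 h the other bright probe sets were therefore lower on day 11 by a similar amount; the difference between them and the members was not tested. Of the 24 genes lower at 0 h, 21 were also lower at 4 h and 19 at 24 h, and 23 had a negative difference at both. The exception was the dim RPS19, at 0.10 (adjusted p = 0.53) at 4 h.

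**Figure D2:**
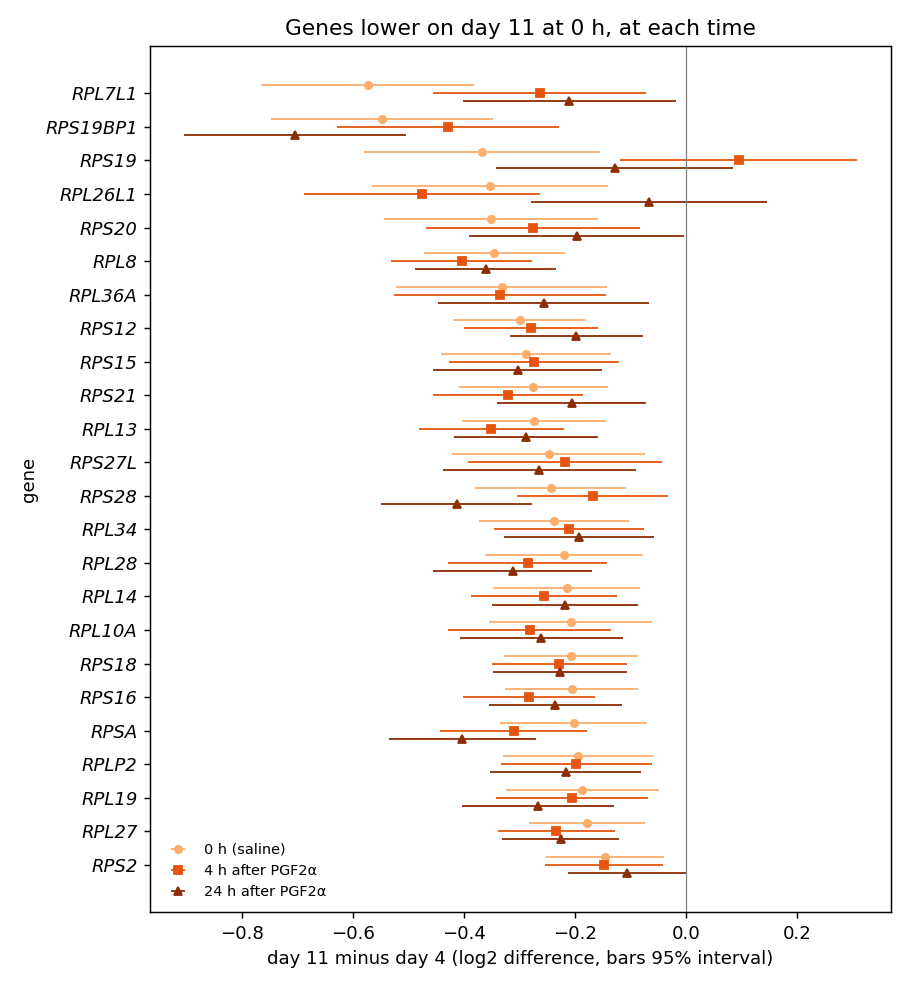
Day 11 minus day 4 (log2 difference with its 95% interval, x axis) for the 24 members called lower at 0 h (y axis), at 0 h, 4 h and 24 h. Apart from RPS19 at 4 h, each point lies left of 0. RPL7L1 lies furthest left at 0 h (-0.57) and RPS19BP1 at 24 h (-0.70).

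Across the 3 times the members ranged from genes called lower throughout to genes called at no time. Over all probe sets, 17.7% were called lower at 0 h, 17.7% at 4 h and 18.8% at 24 h. For the counts below, taken over the 3 times or the 6 groups, the share of all probe sets is not given. Whether they are particular to the members was not tested. The 17 genes lower at all 3 times were RPL8, RPL10A, RPL13, RPL14, RPL19, RPL27, RPL28, RPL34, RPL36A, RPLP2, RPS12, RPS15, RPS16, RPS18, RPS21, RPSA and RPS19BP1. They comprised 10 large-subunit genes, 6 small-subunit genes and the binding protein. RPS12 is among them by its brightest probe set, while the mean of its probe sets pointed the other way. A further 12 were lower at 2 times: RPL4, RPL7A, RPL12, RPL15P, RPL26L1, RPL7L1, RPS2, RPS3, RPS9, RPS20, RPS27L and RPS28. RPS9 was at -0.17 at 0 h (adjusted p = 0.078), -0.30 at 4 h and -0.32 at 24 h. Lower at 1 time were 10: RPL3, RPL5, RPL10, RPL11, RPL23, RPL24, RPL29, RPL38, RPS19 and RPS26. The other 30 were lower at no time, and 0 of the 69 were higher at any. Among those 30, the 95% interval stayed within 1.2-fold at all 3 times for 23. In the large subunit these 30 were RPL7, RPL9, RPL13A, RPL17, RPL18, RPL21, RPL22, RPL26, RPL27A, RPL30, RPL31, RPL32, RPL35, RPL35A, RPL37, RPL37A, RPL39 and RPLP0. In the small subunit they were RPS3A, RPS4Y1, RPS6, RPS7, RPS10, RPS13, RPS14, RPS15A, RPS24, RPS27 and RPS29, and RPL3L was the last. A negative difference at all 3 times was seen for 55 members, and a positive one for RPS3A (0.12, 0.07 and 0.01), which was not called. The highest of the 6 group means was in a day 4 group for 63 members, and the lowest in a day 11 group for 63. The gap between the highest and the lowest group mean had a median of 0.18 over the members. It ran from 0.04 for RPL31 to 0.70 for RPS19BP1.

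RPSA, a small-subunit protein also known as the laminin receptor, was one of the 17. It gave 12.79, 12.90, 12.82, 12.91 and 12.86 in the day 4 controls and 12.57, 12.67, 12.70, 12.68 and 12.65 in the day 11 controls. At 24 h it gave 12.96, 12.79, 12.97, 12.99 and 12.96 on day 4 and 12.38, 12.46, 12.57, 12.65 and 12.60 on day 11. The groups did not overlap at either time. The difference was -0.20 at 0 h (adjusted p = 0.015), -0.31 at 4 h (0.00044) and -0.40 at 24 h (1.2e-05), while the change of the 24 h response between the days, -0.20, was not called (adjusted p = 0.12).

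**Figure D3:**
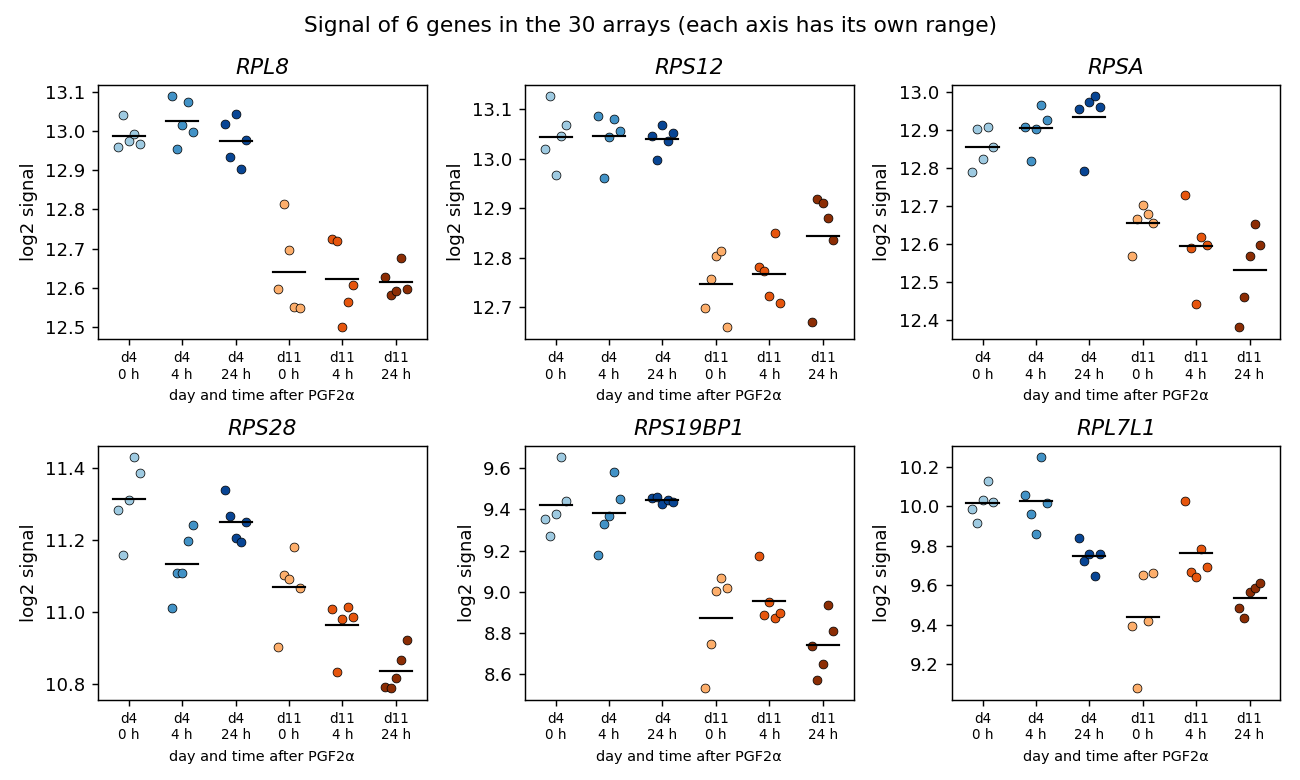
Log2 signal (y axis, a separate range for each gene) of RPL8, RPS12, RPSA, RPS28, RPS19BP1 and RPL7L1 in the 30 arrays, by day and time (x axis), with the group mean as a line. For RPL8, day 4 arrays lie at 12.90 or above and day 11 arrays at 12.81 or below. RPL7L1 has in addition a lower group mean at 24 h than at 4 h on day 4. That call was lost in 8 of 10 fits without 1 array.

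PGF2α left the members, read from their brightest probe sets, close to their controls on both days and at both times. On day 4, 0 members were called at 4 h (2.69% higher and 1.55% lower over all probe sets) and 0 at 24 h (2.12% and 3.05%) in limma's test. At an unadjusted p under 0.05 there was 1 at each time. Median differences were 0.02 at 4 h and 0.03 at 24 h. The 95% interval lay within 1.2-fold for 62 of 69 members at each time.

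On day 11, when the probe sets as a whole changed more, 2 members were called higher at 4 h and 0 lower, against 8.02% and 10.3% of all probe sets. At 24 h, 0 were called higher and 1 lower, against 14.3% and 15.4%. Among the other probe sets at 12 or above, 19.7% were called higher and 29.8% lower at 24 h. Median differences of the members were -0.01 at 4 h and -0.03 at 24 h, and the interval lay within 1.2-fold for 63 and 58 of 69. At 24 h, 7 of 8 markers of steroid-making luteal cells were called lower, with a median of -0.86, and 5 of 8 macrophage markers higher. Over the 4 comparisons of PGF2α with saline, 66 members were called in none and 55 stayed within 1.2-fold in all 4. Of all probe sets, 40.1% were called in at least 1, as were 54.3% of the other probe sets at 12 or above. Over all probe sets, 2.31% stayed within 1.2-fold in all 4. The width of an interval follows the SD between heifers, with a median of 0.0717 for members and 0.198 over all probe sets. The 2.31% is therefore not a like-for-like background for the 55. That share is not given here for the other probe sets at 12 or above. The counts of members rest on the brightest probe set of each. The 29 other probe sets of the members gave 8 calls lower and 1 higher on day 11 at 24 h. Of the 14 among them with a mean of at least 7, 5 were called lower and 1 higher.

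**Figure D4:**
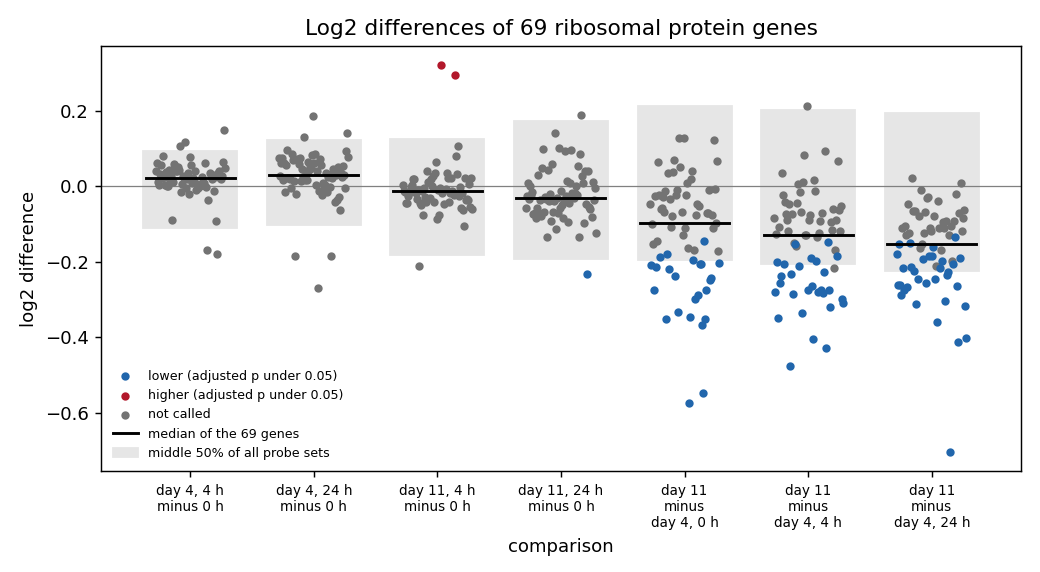
Log2 differences (y axis) of the 69 genes in 7 comparisons (x axis), 4 of PGF2α with saline and 3 of day 11 with day 4, with the median as a line and the middle 50% of all probe sets as a grey box. Blue points were called lower and red points higher. The 4 medians for PGF2α lie between -0.03 and 0.03, and those for day between -0.15 and -0.10.

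The 3 calls after PGF2α were small. RPS28, a small-subunit protein near the path of the mRNA, gave 10.90, 11.10, 11.09, 11.18 and 11.07 in the day 11 controls and 10.79, 10.79, 10.82, 10.87 and 10.92 at 24 h. The groups overlapped through control replicate 1. RPS28 fell by 0.23 on the log2 scale (SE 0.066; limma's adjusted p = 0.0079), and with only the arrays of that comparison the adjusted p was 0.052. Its response did not differ between the days beyond error (-0.17, adjusted p = 0.22).

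RPL7L1 at 4 h on day 11 gave 10.03, 9.67, 9.64, 9.78 and 9.69, overlapping the controls given above. It rose by 0.32 ± 0.094 (SE; limma's adjusted p = 0.015). The call was lost without day 11, 4 h replicate 1 (0.26, adjusted p = 0.059) and without day 11, 0 h replicate 2 (0.23, adjusted p = 0.067), and the mean with its dim probe sets differed by 0.09 (adjusted p = 0.46). RPS19 rose by 0.29 (adjusted p = 0.047) at its dim level, and that call was lost when any of 7 arrays was left out (replicates 1, 2, 3 and 5 at 0 h, and 1, 2 and 4 at 4 h), with adjusted p from 0.056 to 0.16.

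The later change and the differences between the days' responses gave few calls. From 4 h to 24 h, RPL7L1 alone was lower on day 4, by -0.28 (adjusted p = 0.041), against 7.24% of all probe sets lower and 7.67% higher. RPL26L1 alone was higher on day 11, by 0.31 (adjusted p = 0.028), against 12.5% higher and 10.7% lower. The 4 h response differed between the days for 0 members (0.725% higher, 0.375% lower over all probe sets), with 2 at an unadjusted p under 0.05. The 24 h response differed for RPL7L1 alone, by 0.36 (adjusted p = 0.047), against 10.6% higher and 11.7% lower. That call was lost in 15 of 20 fits without 1 array, and the mean with its dim probe sets gave 0.01 (adjusted p = 0.97). The RPL7L1 call on day 4 was lost in 8 of 10 such fits and the RPL26L1 call in 4 of 10.

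Labelling controls, RNA spiked in before labelling, moved opposite to the members among the day 11 controls. Their mean signal in those 5 arrays was 11.38, 10.86, 10.45, 10.12 and 10.34, and the members' deviation, given above, was lowest where it was highest. On day 11 at 24 h the control signal was also highest (10.97) where the members were lowest (-0.17). On day 11 at 4 h the members were lowest (-0.15) where the control signal was lowest (10.24). The mean control signal was 10.63 on day 11 and 10.12 on day 4 at 0 h (two-sided exact permutation p = 0.048, adjusted p = 0.32 over 20 tests). The 3′ minus 5′ difference of EF1A, a sign of RNA quality in the same family of tests, was -2.17 on day 11 and -2.37 on day 4 at 0 h (two-sided exact permutation p = 0.024, adjusted p = 0.24). It was -2.46 on day 11 at 24 h (exact p = 0.0079 against 0 h, the smallest 5 against 5 can give, adjusted p = 0.16). Those 20 tests were not among the planned ones, which were 10 tests of actin and GAPDH. At 0 h the actin difference was 2.10 on day 11 and 1.89 on day 4 (exact permutation p = 0.13, adjusted p = 0.63). For GAPDH it was 0.40 and 0.42 (exact permutation p = 0.87, adjusted p = 0.97). For EIF4E, among the 20, it was 3.34 and 3.24 (exact permutation p = 0.52, adjusted p = 0.83). The part of RNA quality in the members' differences was not tested. With the labelling control signal as a covariate, added after the data were seen, 7 members were called lower at 0 h in place of 24, and the median was -0.07. The total called lower with it was 27 at 4 h in place of 28, and 29 at 24 h in place of 33. RPL8, RPS12, RPL7L1, RPS19 and RPS19BP1 remained called at 0 h, while RPS20 (adjusted p = 0.10), RPL36A (0.058), RPS28 (0.062) and RPL26L1 (0.13) did not. Fitting the 10 control arrays alone gave 11 lower at 0 h. Neither count is set against the share of all probe sets under the same fit.

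**Figure D5:**
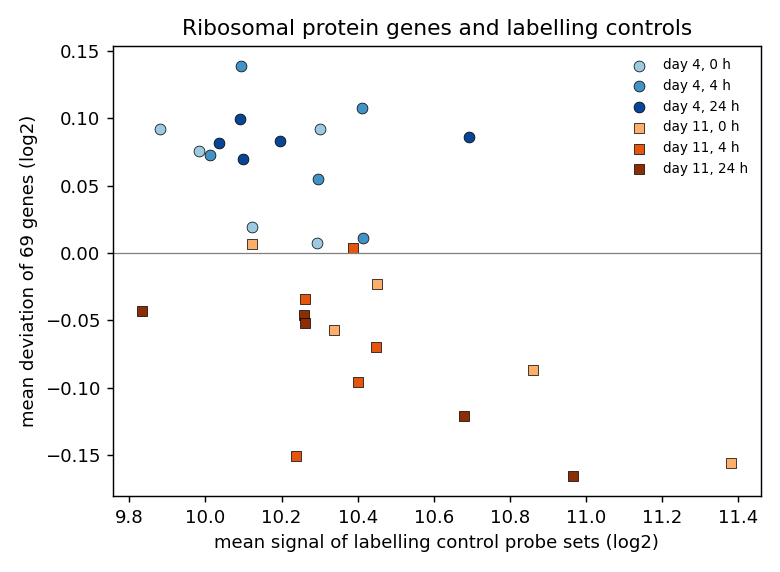
Mean deviation of the 69 genes (log2, y axis) against the mean signal of the labelling control probe sets (log2, x axis) in each of the 30 arrays. Within day 11 (squares), the array with the highest control signal (11.38) has a deviation of -0.16. Day 4 arrays (circles) lie above 0 along the range.

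Where a member had several probe sets, they could disagree. Of the 29 other probe sets, 15 had a mean under 7. At 0 h the 29 gave 3 calls lower and 4 higher on day 11 (median -0.05), against 17.7% lower and 16.2% higher over all probe sets. The 14 with a mean of at least 7 gave 2 lower and 4 higher, with a median of 0.12. RPS15A differed by -0.05 on its brightest probe set (13.23) and by -0.68 (adjusted p = 2e-06) on one at 7.78. RPL21 differed by -0.06 on its brightest (13.11) and by -0.60 (adjusted p = 2.3e-05) on one at 7.29. RPL24 turned the other way, with -0.07 on the brightest and 0.90 (adjusted p = 0.0011) on one at 10.72. These genes were picked for their disagreement. Probe sequences were not analysed here, so signal from near-identical copies or pseudogenes cannot be told apart from the genes named.

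Other genes of the translation machinery were set beside the members, with no test between the lists. At 0 h, 22 of 35 initiation factors were called lower and 2 higher (median -0.30), against 17.7% lower and 16.2% higher over all probe sets. EIF3B, a core subunit of the complex that loads the small subunit, differed by -1.05 (adjusted p = 9.5e-09), and PABPC4, a poly(A)-binding protein, by -0.97 (4.8e-08). Of 11 elongation and release factors, 5 were called lower and 1 higher (median -0.18): ETF1, which ends translation at stop codons, differed by -1.14 (1.1e-08), and EEF1A1, which delivers tRNA, by 0.03 (0.71). FAU, whose product includes a ribosomal protein, differed by -0.04 (0.72), and ribosome-bound RACK1 by 0.12 (0.18). Of 4 other mRNAs known for an oligopyrimidine start, TPT1 alone was called, higher by 0.37 (2e-05), and the median was -0.08.

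Genes that control the translation of ribosomal protein mRNAs were read 24 h after PGF2α on day 11, where RPS28 was the 1 member called. Of 26 such genes, 7 were called higher and 4 lower, against 14.3% higher and 15.4% lower over all probe sets, so the lower calls were at the background share. EIF4EBP1, the mTOR target that holds back the cap-binding initiation factor, fell by 1.71 on the log2 scale (limma's adjusted p = 6.3e-10), and DDIT4, an inhibitor of mTOR, fell by 1.98 (6.5e-07). MYC, which drives ribosome production, rose by 0.95 (5.4e-06). Initiation factors gave 8 calls higher and 1 lower of 35 at 24 h, beside those same shares.

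Cell markers also moved with day at 0 h. All 4 proliferation genes measured were called lower on day 11 (median -2.98), with a mean signal of 9.10 to 9.43 in day 4 controls and 5.61 to 7.44 in day 11 controls. Of 8 macrophage markers 5 were called higher (7.13 to 7.24 on day 4, 8.13 to 8.87 on day 11), and of 10 endothelial markers 7 (7.12 to 7.55 and 7.86 to 8.03). Of 7 smooth muscle and pericyte markers, ACTA2, CNN1, DES and TAGLN were called lower and RGS5 and PDGFRB higher. The mean signal of those 7 was 8.60 to 8.91 on day 4 and 8.06 to 8.88 on day 11. Of 6 fibroblast markers, COL1A2, COL3A1 and PDGFRA were called lower and LUM higher (12.05 to 12.39 and 11.60 to 12.01). Of 8 luteal markers 5 were called higher and 1 lower (12.11 to 12.29 and 12.52 to 12.67). Of 9 T and NK cell markers 4 were called higher, of 3 B cell markers 1 higher, of 3 neutrophil markers 2 lower and of 3 erythroid markers 0. Among the last, HBB differed by 0.50 (limma's adjusted p = 0.061) and was the 1 at an unadjusted p under 0.05. Their part in the difference of the members was not tested. On day 4, the proliferation genes were called lower 24 h after PGF2α (4 of 4, median -1.71). Their mean signal there spread from 5.51 to 9.16 between heifers. In that comparison 0 members were called and the members' median was 0.03. Whether the members and the proliferation genes are related was not tested. No marker is at 0 on this scale.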

How the data were processed

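The deposited values are log2 signals of an Affymetrix bovine array, which the authors made with RMA per the submitters' processing notes; its version and the arrays normalized together are not given in the sources used here. They were used unchanged. Control probe sets (112) were left out. The platform annotation gave 13292 probe sets 1 symbol, 86 several and 10638 none. Limma 3.58.1 in R 4.3.3 fitted all 30 arrays with 1 mean per group and default empirical Bayes (24 residual degrees of freedom, 28.2 after moderation); p-values were adjusted by Benjamini-Hochberg within a contrast over 24016 probe sets. The fit was tested on simulated data. The number of arrays, 5 per group, limits the precision; the smallest two-sided exact p for 5 against 5 is 0.0079.

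The members, gene lists, tests and alternatives were chosen with earlier results of these data known. Named genes were, per contrast, up to 8 members called with the largest rise and up to 8 with the largest fall, the stalk proteins, RPSA, RPS6, RPS4Y1, paralogs and binding proteins with the genes they resemble, and up to 4 called genes of each translation list. Genes listed by class, and RPS15A, RPL21, RPL24, EEF1A1, FAU and RACK1, were named after their values were seen. Alternatives covered normalization, scaling, dim probe sets, moderation, array weights, the replicate number as a block, arrays of the contrast alone, control probe sets, probe set choice, the threshold, the paralogs and each array left out. Replicate numbers were checked as pairs. Over 75 pairs of same-numbered arrays in different groups, deviations from the group means correlated at -0.20 to 0.26 (median 0.05). Of these, 24 pairs exceeded 0.1. Over pairs with different numbers the median was -0.015.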

Additional observations from a re-analysis of the deposited data

Results flagged for a closer look

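Among 126 sets of 5 arrays, those of 20 named members and of the members' mean deviation in each of the 6 groups, 6 held an array far from the other 4; chance gives about 1 in 20. RPS20 in day 11, 0 h replicate 1 was 11.99, with the others at 12.67 to 12.74; that array also had the highest labelling control signal. RPSA in day 4, 24 h replicate 2 was 12.79, with the others at 12.96 to 12.99. RPS28 in day 11, 4 h replicate 2 was 10.83, with the others at 10.98 to 11.01. RPS4Y1 in day 11, 4 h replicate 4 was 12.97, with the others at 13.15 to 13.21. RPS19BP1 in day 11, 4 h replicate 1 was 9.17, with the others at 8.87 to 8.95. RPL26 in day 4, 4 h replicate 4 was 13.14, with the others at 13.06 to 13.08. RPL7L1 was the 1 member whose 24 h response differed between the days in limma's test, by 0.36.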

How the results depend on the processing

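The counts of members lower on day 11 held within 1.5 times at 24 h under every alternative run. At 0 h (24) the arrays of the contrast alone gave 11 and the labelling covariate 7; at 4 h (28) the arrays of the contrast alone and an adjusted p under 0.01 each gave 18. Robust moderation and the mean of all probe sets each gave 1 member higher at 0 h. Leaving out 1 array gave 18 to 25 lower at 0 h, 22 to 31 at 4 h and 26 to 32 at 24 h. With the mean of all probe sets RPS12 reversed to 0.11 at 0 h, 0.13 at 4 h and 0.17 at 24 h. For day 11, 4 h after PGF2α (2 higher), robust moderation, the mean of all probe sets, the covariate, leaving out paralogs and leaving out dim members each gave 1; array weights, the contrast's arrays alone and an adjusted p under 0.01 gave 0; 1 array less gave 0 to 2; and the covariate gave 1 lower. For day 11, 24 h (1 lower), robust moderation and the covariate gave 2, the mean of all probe sets 6 and the contrast's arrays alone 0. Array weights gave 1 lower on day 4 at 24 h. From 4 h to 24 h, the single call of each day became 0 with array medians subtracted, an adjusted p under 0.01 or no paralogs, and that of day 4 also with quantile normalization; 1 array less gave 0 to 1. The mean of all probe sets there gave 1 higher on day 4 and 2 lower on day 11. The single 24 h interaction became 0 with quantile normalization, array medians, the mean of all probe sets, the covariate, an adjusted p under 0.01 or no paralogs, and 0 to 1 with 1 array less; lower calls there became 1 with robust moderation, 3 with the mean of all probe sets and 2 with the covariate, and its median moved from -0.06 to 0.00087 with quantile normalization. The 4 h interaction gave 0 to 1 higher with 1 array less. The causes were not tested.

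The sample titles do not say what same-numbered arrays share beyond the number. With the replicate number as a block, 25 members were lower at 0 h, 29 at 4 h and 33 at 24 h, and no count moved by over 1.5 times.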
